A study of Nasonia vitripennis with 23 samples.

Results

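Expression of 6 immune genes was followed in the head of the female parasitoid wasp *Nasonia vitripennis*: the pattern recognition gene Gnbp1-2, the adaptor gene Imd, the defensin genes Def1-1 and Def1-2, and the prophenoloxidase genes ppo1 and ppo3. They were taken by these names from the deposited count table and are 6 of its 14131 rows. All 6 were among the 13599 genes with at least 1 read in the 22 libraries tested, and among the 9301 of these that averaged 100 counts or more, called well covered genes. Females of the AsymC strain, which was cured of *Wolbachia*, had earlier been kept with a host and then with honey solution. They were given 3 hosts and allowed to oviposit for 3 h, and RNA was then extracted from pools of 12 heads. A single foundress was alone (8 pools), a five-foundress female had 4 co-foundresses (7 pools) and a 10-foundress female had 9 (8 pools), the co-foundresses being of the red-eyed STDR strain and not part of the pools. Both strains were reared on blowflies of the genus *Calliphora*, heads came from females that had left offspring, and the question was whether the number of co-foundresses changed expression in the head. Single-foundress replicate 2 was removed by the study as an outlier, so it is shown apart here and 7, 7 and 8 pools remain.

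Insects meet microbes with innate immunity alone. In *Drosophila*, bacterial cell wall is sensed by recognition proteins, the Imd adaptor passes the signal on to the NF-kappaB factor Relish, and Relish switches on genes of antimicrobial peptides in the fat body, a tissue that is also found around the brain in the head capsule. Recognition proteins of the Gnbp family act upstream of the Toll pathway in flies, defensins are small secreted peptides rich in cysteine that damage bacterial membranes, and prophenoloxidases are inactive copper enzymes which, once cut by serine proteases, oxidise phenols and so start the formation of melanin in wounds, around intruders and in cuticle.

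The deposited counts summed to between 25194329 and 69696501 per library. Levels are given as CPM, the count of a gene relative to the library size after scaling with trimmed mean of M-values (TMM) factors. The lowest count of any of the 6 genes in the 22 libraries was 141, for ppo1, so that counting error alone was at most 8.42% of a value. Gene lengths were not used, so levels are compared between pools and not between genes. The paper balanced the set-up of its females over 3 days. No label says on which day a pool was made, so day could not enter the fit, and replicate numbers are not shared between groups. A pool value also cannot tell apart a strong response of few of the 12 females and a weaker one of all of them, or a change in the number of cells of a type and a change in RNA per cell. Marker genes of the tissue were detected in each of the 22 libraries: the opsin gene Lop1, which marks the eye, lay between 5530 and 11911 CPM, and the synaptotagmin gene Syt1, which marks nerve cells, lay between 212 and 325 CPM. The 3 hexamerin genes, which in insects are typical of fat body, summed to between 9.70 and 25.4 CPM.

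**Figure D1:**
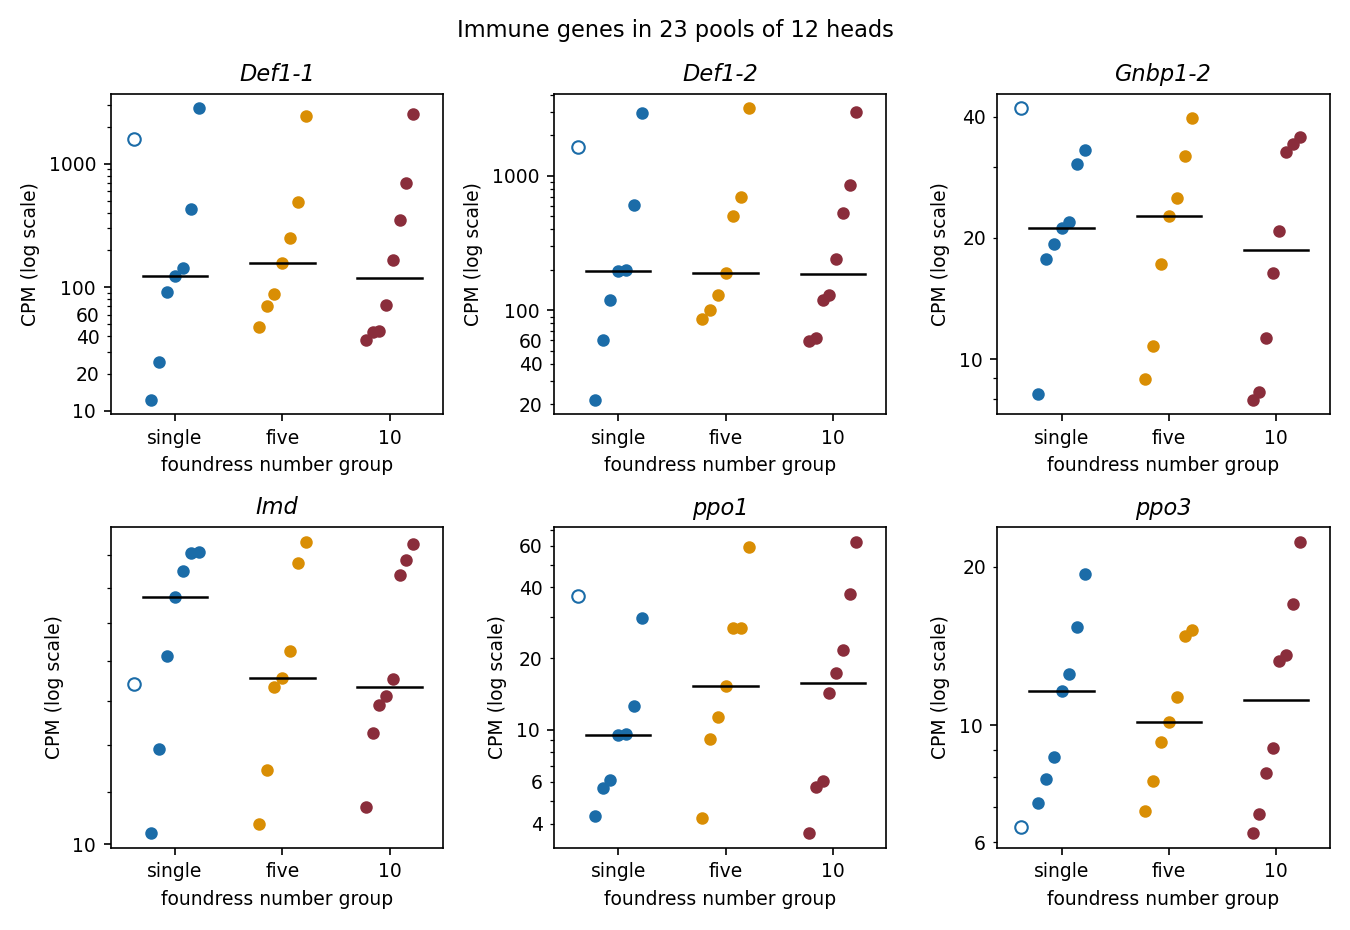
CPM of each gene (log axis) in each pool by foundress number, with filled points for the 22 pools, bars for the group medians and an open circle for single-foundress replicate 2. The ranges of the 3 groups overlapped for all 6 genes, and for Def1-1 1 pool of each group stood far above the rest of its group (2824, 2419 and 2535 CPM).

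Gnbp1-2 encodes a member of the family of beta-glucan and Gram-negative bacteria binding proteins. Its level in single-foundress pools was 8.23 CPM at the lowest, 21.2 at the median and 33.0 at the highest. In five-foundress pools the lowest, median and highest levels were 8.94, 22.6 and 39.7 CPM, and in 10-foundress pools they were 7.94, 18.6 and 35.7 CPM. The groups overlapped over nearly their whole ranges, and the pools with the lowest levels (10-foundress replicates 19 and 20, single-foundress replicate 8 and five-foundress replicate 12) came from all 3. Relative to single foundresses, the log2 fold change of Gnbp1-2 was 0.04 (SE 0.38) in five-foundress and -0.04 (SE 0.36) in 10-foundress pools.

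Imd encodes the death domain adaptor after which the Imd pathway is named. It had the narrowest spread of the 6 genes. The lowest, median and highest levels were 10.2, 15.7 and 17.1 CPM in single-foundress pools, 10.4, 13.6 and 17.4 CPM in five-foundress pools and 10.7, 13.3 and 17.3 CPM in 10-foundress pools. The highest pool of the 22 thus had 1.71 times the level of the lowest, and the lowest pools again came from each group (single-foundress replicate 7, five-foundress replicate 13 and 10-foundress replicate 19). The log2 fold change of Imd was -0.08 (SE 0.14) from single to 5 foundresses and -0.04 (SE 0.14) from single to 10 foundresses. Its 95% interval in the latter comparison ran from -0.33 to 0.25 on the log2 scale.

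The defensins varied most. Def1-1 lay at 12.3 CPM in the lowest, 123 in the median and 2824 in the highest single-foundress pool. The five-foundress pools had 48.1, 157 and 2419 CPM, and the 10-foundress pools 37.4, 120 and 2535 CPM. The high values were those of 3 pools, 1 of each group: single-foundress replicate 6, five-foundress replicate 10 and 10-foundress replicate 24. The next pool of each group was at 432, 487 and 698 CPM, and the lowest pool of all, single-foundress replicate 8, had 372 Def1-1 reads. Def1-2 had its highest level in the same 3 pools, at 2925, 3192 and 2986 CPM, against group medians of 196, 191 and 186 CPM and lowest levels of 21.7, 85.7 and 59.7 CPM. For both defensins the groups overlapped across almost all of their range. The 3 high libraries took between 0.511% and 0.590% of all their reads from these 2 genes, while single-foundress replicate 8 took 0.00344%.

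Def1-1 and Def1-2 are neighbours in the RefSeq annotation (assembly Nvit_psr_1.1), and their levels went together. Over the 22 pools their Spearman rho was 0.97, with 0.96, 0.93 and 1 within the single-, five- and 10-foundress pools and 0.96 without the 3 high pools. The points share a library and the counting step. Any reads that could come from either gene may have been lost or split, since the authors' counting did not use ambiguous reads. How alike the sequences of the 2 genes are was not examined. The ratio of Def1-2 to Def1-1 reads, which is compared here between pools only as it also depends on gene length, was not constant. It had a median of 1.45 and ran from 1.04 in single-foundress replicate 6 to 2.77 in five-foundress replicate 13. In the high pools of the other groups it was 1.32 (five-foundress) and 1.18 (10-foundress), and across pools it tended to be lower where Def1-1 was higher (rho -0.64, in part by construction because Def1-1 is the divisor).

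ppo1 and ppo3 encode 2 prophenoloxidases and are also neighbours in that annotation. ppo1 lay at 4.30, 9.45 and 29.8 CPM in the lowest, median and highest single-foundress pool. It lay at 4.23, 15.3 and 59.2 CPM in five-foundress pools and at 3.64, 15.8 and 62.5 CPM in 10-foundress pools. The groups overlapped. Above the highest of the 7 single-foundress pools lay 1 five-foundress and 2 10-foundress pools, and single-foundress replicate 2, kept apart, had 36.9 CPM. The highest ppo1 levels were in 10-foundress replicate 18 (62.5 CPM), five-foundress replicate 10 (59.2 CPM) and 10-foundress replicate 23 (37.6 CPM). ppo3 lay at 7.12, 11.6 and 19.4 CPM in the lowest, median and highest single-foundress pool, at 6.89, 10.2 and 15.2 CPM in five-foundress pools, and at 6.24, 11.2 and 22.3 CPM in 10-foundress pools. The groups overlapped, and the highest (replicate 24) and the lowest (replicate 18) ppo3 level of all 22 pools were both those of 10-foundress pools.

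**Figure D2:**
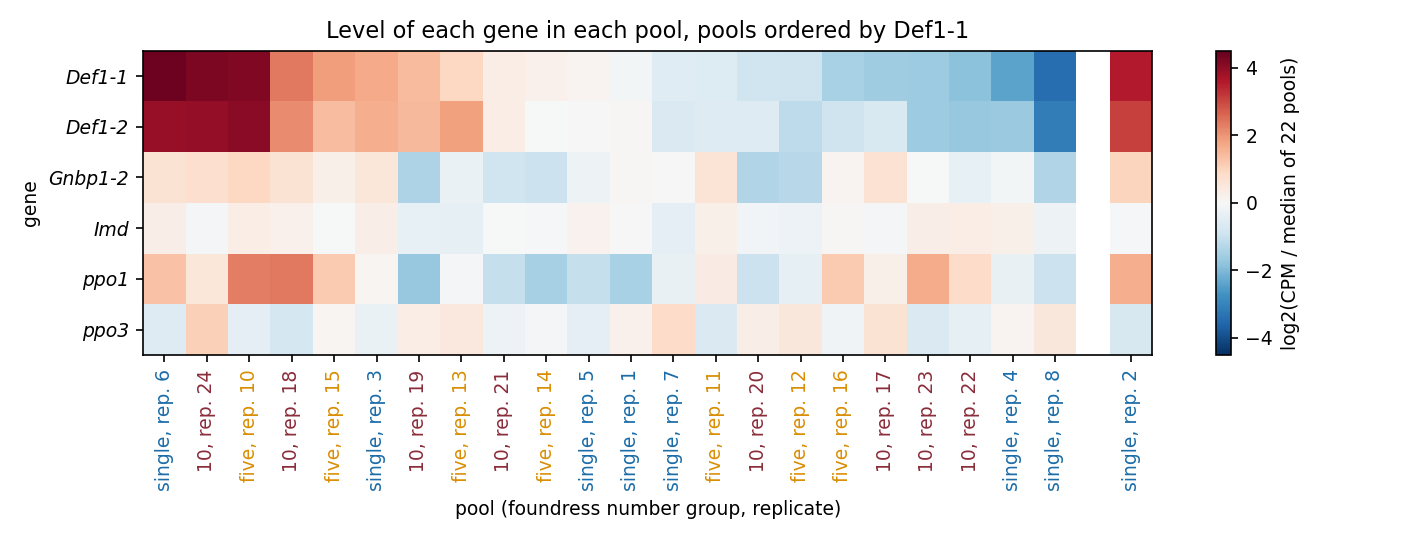
Log2 of CPM relative to the median of the 22 pools for each gene (rows) in each library (columns). The 22 pools are ordered by Def1-1 with the groups mixed, label colours give the group, and single-foundress replicate 2 is a column set apart. The 3 pools highest in Def1-1 were also high in Def1-2 and Gnbp1-2, while ppo3 was low in 2 of them (7.12 and 7.86 CPM) and highest of all in 10-foundress replicate 24 (22.3 CPM).

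The 3 pools with high defensins did not share 1 profile of the other genes. Single-foundress replicate 6 had 33.0 CPM of Gnbp1-2, 17.1 of Imd, 29.8 of ppo1 and 7.12 of ppo3, which made it the highest single-foundress pool in the first 3 and the lowest in ppo3. Five-foundress replicate 10 likewise had the highest Gnbp1-2 (39.7 CPM), Imd (17.4 CPM) and ppo1 (59.2 CPM) of its group, with ppo3 at 7.86 CPM. 10-foundress replicate 24 also had the highest Gnbp1-2 of its group (35.7 CPM), but its Imd was 12.9 CPM, its ppo1 17.3 CPM and its ppo3 22.3 CPM. In 10-foundress replicate 18 the pattern was different again: Def1-1 was at 698 CPM, ppo1 was at its highest and ppo3 at its lowest level of the 22 pools (62.5 and 6.24 CPM).

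Single-foundress replicate 2, the library left out of the tests, was high in the defensins and in ppo1 and low in ppo3. It held 1580 CPM of Def1-1 and 1650 CPM of Def1-2, more than 19 of the 22 other pools in both cases, and only the same 3 pools were higher. Its 42.0 CPM of Gnbp1-2 exceeded all 22 other pools, its 36.9 CPM of ppo1 exceeded 19 and its 6.41 CPM of ppo3 exceeded 1. Imd, at 13.4 CPM, was above 9 of them. The same library stood apart in the genes listed here as ovary markers, whose part in these values was not tested. In it nanos was at 21.6 CPM (0.0369 to 0.255 CPM elsewhere), cycB at 88.6 CPM (0.0330 to 1.63 CPM) and oskar at 43.1 CPM (8.20 to 16.2 CPM). Whether these genes are specific to ovary was not examined, and oskar was detected in every pool of heads.

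The comparison of the groups asked whether foundress number moved any of the 6 genes. Fold changes came from edgeR's quasi-likelihood test, with p-values adjusted by the Benjamini-Hochberg method over all genes tested. None of the 6 genes passed an adjusted p of 0.05, or an unadjusted p of 0.05, in any of the 3 pairwise comparisons or over all groups. Over all 13599 genes, 0% passed the adjusted threshold in each of the 4 tests, and 1.76% (single versus 5), 1.81% (5 versus 10), 3.18% (single versus 10) and 1.96% (all groups) passed the unadjusted one. DESeq2 likewise called 0 of the 6 at either threshold. limma with voom and sample quality weights called 0 of them after adjustment. Before adjustment Gnbp1-2 passed by this method in the single versus 10 comparison, with an adjusted limma p of 0.335. In that comparison 1917 of the 13599 genes passed the unadjusted threshold by the same method. The voom estimates for Gnbp1-2 were also much lower than those of edgeR. On the log2 scale they were -0.82 from single to 10 and -0.60 from 5 to 10 foundresses.

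In each comparison the estimates of at least 5 of the 6 genes were smaller than their SE, but the intervals differed much in width. From single to 10 foundresses, Def1-1 had a log2 fold change of -0.06 (SE 1.10), and its 95% interval from -2.34 to 2.22 left room for anything from 0.197-fold to 4.67-fold. Def1-2 had 0.10 (SE 1.01, interval -1.99 to 2.18). For ppo3 the value was 0.04 (SE 0.27, interval -0.51 to 0.60). ppo1 had the largest estimates, 0.99 (SE 0.60, interval -0.25 to 2.23) from single to 5 foundresses and 0.95 (SE 0.58, interval -0.26 to 2.15) from single to 10. Their adjusted p-values were 1 and 0.952 in edgeR's quasi-likelihood test. The median SE of well covered genes was 0.15 to 0.16, so that the tests of the defensins were far less precise than those of most genes and the test of Imd (SE 0.14) about as precise.

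**Figure D3:**
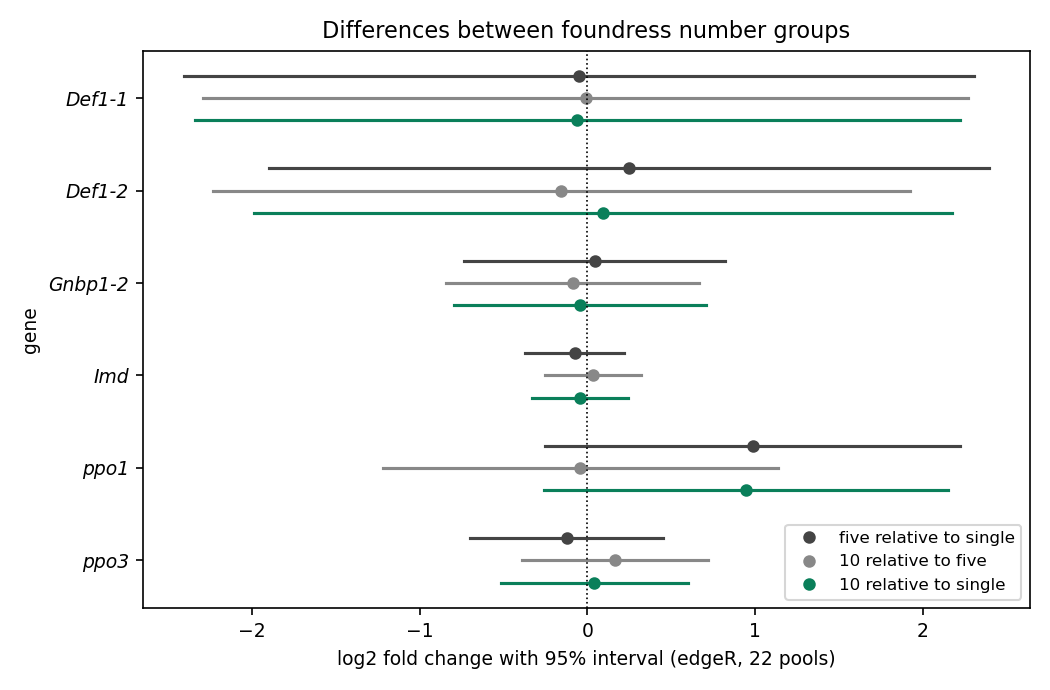
Log2 fold change of each gene in the 3 pairwise comparisons of foundress number. The 95% intervals were worked back from the F statistic of edgeR's quasi-likelihood test of 22 pools. All 18 intervals included 0, and in each comparison that of Def1-1 was the widest (from -2.34 to 2.22 between single and 10 foundresses) and that of Imd the narrowest (from -0.33 to 0.25).

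From 5 to 10 foundresses the log2 fold changes were -0.01 for Def1-1, -0.15 for Def1-2, -0.09 for Gnbp1-2, 0.03 for Imd, -0.04 for ppo1 and 0.17 for ppo3, each smaller than its SE. Across the 6 genes the median log2 fold change was -0.0031 (single to 5), -0.025 (5 to 10) and 1.18e-05 (single to 10), beside 0.0038, 0.011 and 0.01 over all genes tested. The comparisons share pools, so these values are not independent. Single pools set the sign of the defensin estimates. Without single-foundress replicate 6 the log2 fold change of Def1-1 was 1.85 from single to 5 and 1.87 from single to 10 foundresses, without five-foundress replicate 10 it was -1.48 from single to 5, and without 10-foundress replicate 24 it was -1.37 from single to 10. None of these passed the adjusted threshold. The estimates of ppo1 against single foundresses also hung on single pools. Without single-foundress replicate 6 they were 1.46 (5 foundresses) and 1.41 (10), with adjusted p-values of 0.946 and 0.825 in edgeR's quasi-likelihood test. Without five-foundress replicate 10 the first was 0.51, and without 10-foundress replicate 18 the second was 0.48. With single-foundress replicate 2 included they were 0.61 and 0.56, and limma with voom and sample quality weights gave 0.63 and -0.13.

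Differences between the foundress number groups made up a small part of the variance between pools for these genes. Groups of pools differ somewhat without any treatment effect, so these shares alone do not measure an effect of foundress number. The share of the sum of squares of log2 CPM between groups was 1.47% for Def1-1, 1.76% for Def1-2, 1.11% for Gnbp1-2, 1.53% for Imd and 0.722% for ppo3, against a median of 5.51% over the 9301 well covered genes. ppo1, at 8.61%, was above that median, with 29.8% of these genes higher still.

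Within groups the 6 genes ranged from among the most to the moderately variable genes of the head. The SD of log2 CPM about the group means was 2.26 for Def1-1 and 2.05 for Def1-2, and only 19 and 26 of the 9301 genes, or 0.204% and 0.280%, had a larger one. It was 1.21 for ppo1 (1.15% of genes larger), 0.79 for Gnbp1-2 (5.07%) and 0.55 for ppo3 (15.4%). Imd had an SD of 0.27, below the median of 0.30 over these genes. Over all 22 pools, groups together, the ratio of the highest to the lowest pool was 230-fold for Def1-1, 147-fold for Def1-2, 17.2-fold for ppo1, 5.00-fold for Gnbp1-2, 3.58-fold for ppo3 and 1.71-fold for Imd.

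**Figure D4:**
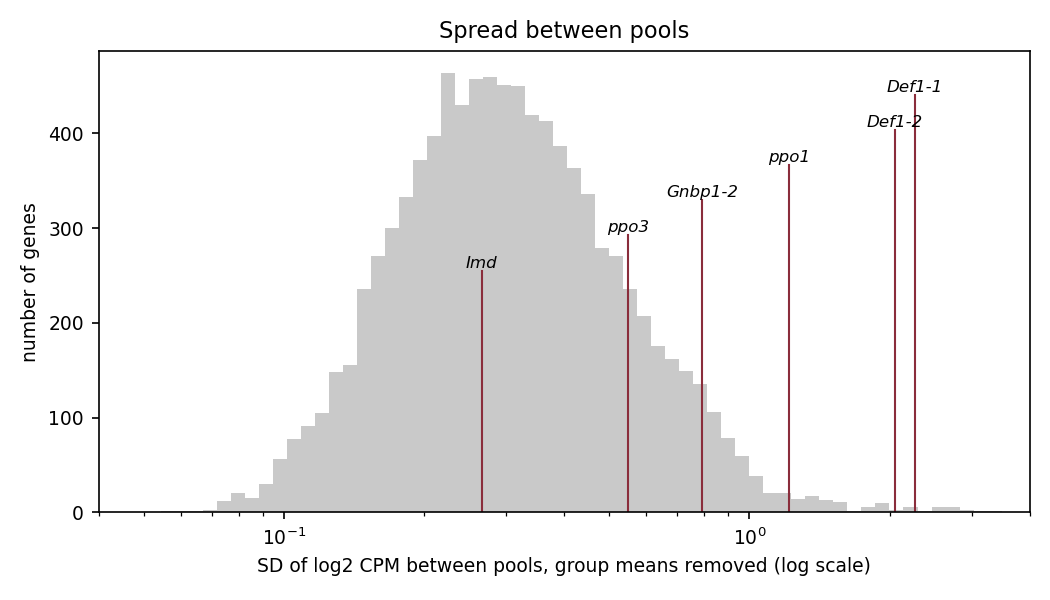
Distribution over 9301 genes of the SD of log2 CPM between pools about the group means (logarithmic x axis, number of genes on the y axis), with vertical lines at the 6 genes. The median gene had an SD of 0.30, Imd lay just below it at 0.27, and Def1-1 lay at 2.26 with 19 genes beyond it.

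Movement of the genes together was described over the 22 pools for all 15 pairs. These correlations are given with no test, as the genes were named with part of the pattern known, and the pools of a group share their treatment. The clearest opposite movement of ppo3 was with Imd, at a rho of -0.83 (Pearson r -0.81). It was seen in each group, at -0.89, -0.89 and -0.71 for single, 5 and 10 foundresses, and r was -0.78 when the pools farthest from the median of Imd (single-foundress 7 and five-foundress 13) were dropped. Leaving out any 1 pool kept rho between -0.85 and -0.81. Of the other well covered genes, 2.31% had a rho with Imd as low as this, and 3.71% had one with ppo3.

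ppo3 moved against ppo1 less closely. Their rho was -0.46 (r -0.46), with -0.32, -0.46 and -0.60 within groups. Of the other well covered genes, 11.7% had a rho with ppo1 as low as this, and 28.2% had one with ppo3. Without 10-foundress replicate 18 and five-foundress replicate 10, the pools farthest from the median of ppo1, r was -0.31. Against the defensins no firm movement of ppo3 was seen: its rho with Def1-1 was -0.19 over 22 pools, -0.79 within the single-foundress, -0.07 within the five-foundress and 0.31 within the 10-foundress pools. Dropping 10-foundress replicate 24 gave -0.34, dropping replicate 18 of that group gave -0.10, and 22.7% of genes had a rho with Def1-1 as low as that over all 22 pools. With Gnbp1-2 the rho of ppo3 was -0.27, again with opposite signs in five-foundress (-0.79) and 10-foundress pools (0.17).

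**Figure D5:**
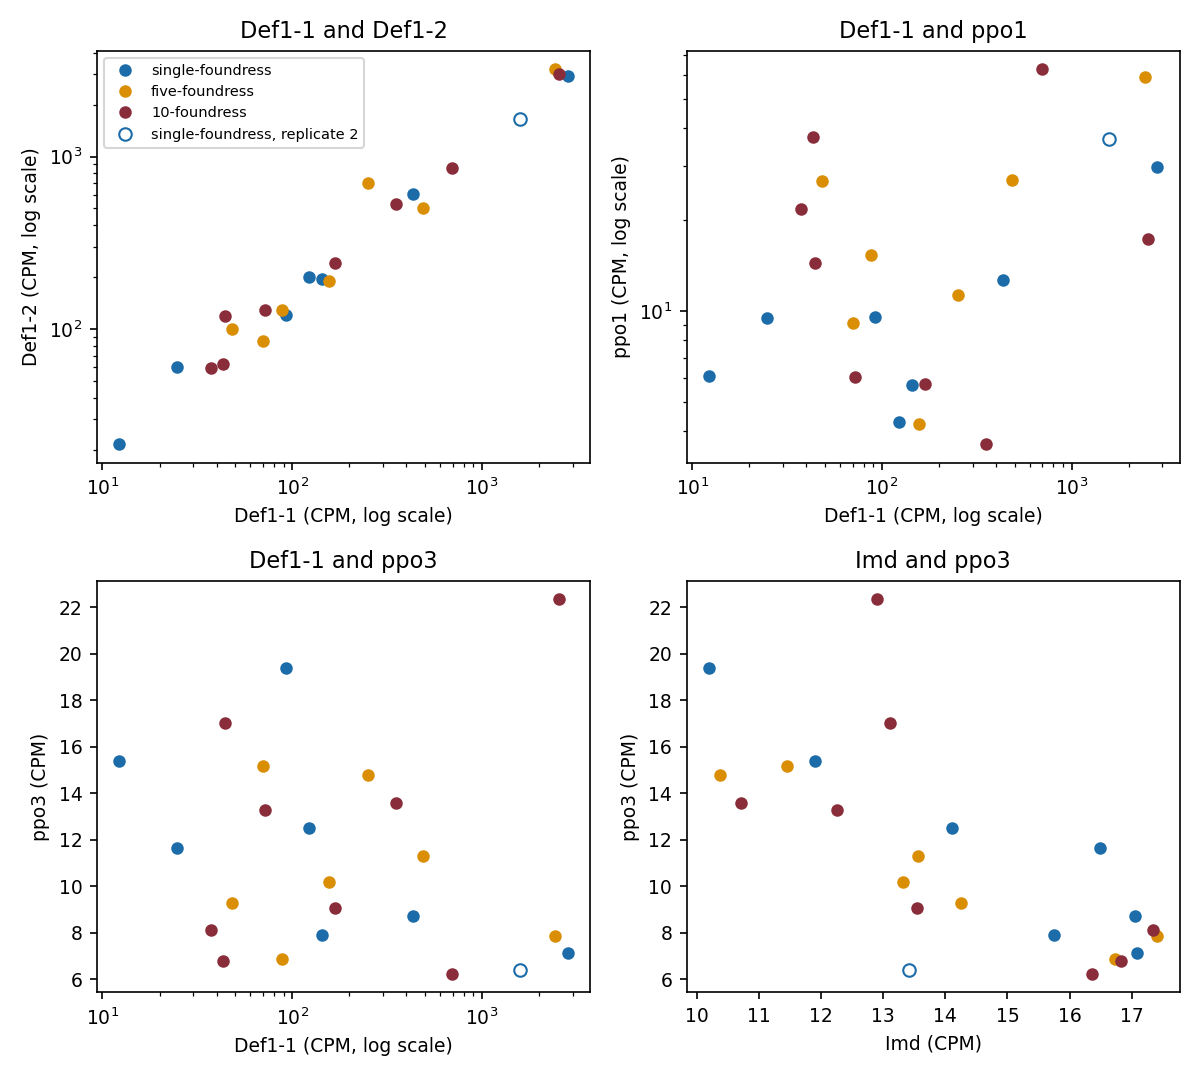
CPM of pairs of genes against each other over the 22 pools, with a colour for each foundress number and an open circle for single-foundress replicate 2. The axes of Def1-1, Def1-2 and ppo1 are logarithmic, and those of Imd and ppo3 are linear. Def1-1 and Def1-2 went together (rho 0.97) and ppo3 was lower where Imd was higher (rho -0.83). Def1-1 showed little order with ppo1 (rho 0.22) or with ppo3 (rho -0.19).

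Gnbp1-2, Imd and ppo1 moved in the same direction. The rho of Gnbp1-2 with ppo1 was 0.71 (r 0.71), at 0.61, 0.86 and 0.62 within the groups and 0.65 as r without the pools farthest from the median of Gnbp1-2. The rho of Imd with ppo1 was 0.56, with 0.54, 0.71 and 0.74 within groups, and it was 0.39 when counts were scaled by library totals alone. Gnbp1-2 and Imd had a rho of 0.50, with 0.61, 0.86 and 0.31 within groups. Of the other well covered genes, 2.73% had a rho with Gnbp1-2 as high as that of ppo1, and 12.3% as high as that of Imd. For Imd, 14.9% had a rho as high as that of ppo1. Def1-1 had a rho of 0.46 with Gnbp1-2 over 22 pools and 0.19 without the 3 pools high in defensins. Its rho with Imd was 0.10 and with ppo1 0.22, and without those pools these were -0.12 and -0.07.

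These correlations stand beside a wide common variation of the pools. For ppo3, 25.3% of the 9300 other genes had a rho of 0.5 or more and 25.8% had -0.5 or less. For Imd the shares were 18.8% and 19.7%, while for Def1-1 they were 1.83% and 0.968%. The total count of a pool had a rho of -0.56 with ppo3 and 0.35 with Imd, but 0.06 with Def1-1. Tissue markers moved with ppo3 as well: its rho was 0.88 with Lop1, 0.89 with the hexamerin gene Hex109, 0.87 with Hex83, and 0.56 with Syt1, but -0.20 with Hex70b. For Imd the values were -0.66, -0.82, -0.69, -0.78 and 0.25 in the same order. The genes listed as ovary markers went different ways. Their rho with ppo3 was 0.82 for oskar, -0.17 for nanos and -0.51 for cycB. With Imd it was -0.64, 0.35 and 0.42, and nanos and cycB were close to 0 CPM in most pools. The summed level of 211 odorant receptor genes, which are typical of the antenna, lay between 159 and 981 CPM, with a rho of 0.61 with Gnbp1-2, 0.54 with Imd, -0.40 with ppo3 and 0.07 with Def1-1. The part of total counts and of tissue makeup in the movement of ppo3 and Imd was not tested.

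The genes most like each of the 6 in pattern were looked for among the well covered genes, by Spearman rho over the 22 pools. For Def1-1 these were Def1-2, LOC100116651 and LOC100116503, each at 0.97. LOC100116503 covered a range of 30.9 to 4690 CPM and LOC100116651 one of 3.66 to 385 CPM. For Def1-2 they were Def1-1, LOC100115498 (0.97) and LOC100122694 (0.96), so that no other of the 6 genes was among the closest to either defensin. Gnbp1-2 was closest to LOC100679834 (0.95), LOC100122494 (0.93) and LOC100122580 (0.92), and ppo1 to LOC100121833, LOC100120629 and LOC103315995 (each 0.89). Imd was closest to LOC100121124 and LOC100117333 (each 0.91) and LOC100114275 (0.90), and ppo3 to LOC100121416, LOC100117235 and LOC100123718 (each 0.98).

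The lowest rho of any gene with Imd was that of the nicotinic acetylcholine receptor subunit gene nAChRa1 (-0.95, 32.0 to 78.3 CPM), followed by LOC100122056 (-0.93) and LOC100117717 (-0.92). The genes moving most against ppo3 were LOC100113719 (-0.97), LOC100120780 and LOC100123913 (each -0.95). The most opposite genes of the defensins were less so: LOC100119865 (-0.76), LOC100117511 (-0.73) and LOC100115526 (-0.70) for Def1-1. For Gnbp1-2 they were LOC100124063 (-0.89), LOC100120951 (-0.86) and LOC100124183 (-0.85), and for ppo1 LOC100121761 (-0.85), LOC100123435 and LOC103317472 (each -0.84).

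Of other genes with an immune role, 2 were added after their values had been seen. Def2-3, a further defensin gene (LOC100121630), lay between 7.50 and 64.4 CPM. Its highest levels were in the 3 pools that were highest in Def1-1, at 64.4 CPM in 10-foundress replicate 24, 46.2 in five-foundress replicate 10 and 32.3 in single-foundress replicate 6, yet over all 22 pools its rho with Def1-1 was 0.41. The serpin gene serpin5 belongs to a family of serine protease inhibitors, some of which in other insects restrain the Toll and melanin cascades. It lay between 118 and 696 CPM and was highest in five-foundress replicate 10 (696 CPM) and 10-foundress replicate 18 (498 CPM), the pools with the highest ppo1, while single-foundress replicate 6 had 259 and 10-foundress replicate 24 had 219 CPM. Its rho was 0.54 with Def1-1 and -0.60 with ppo3.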

How the data were processed

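Heads were pooled by 12 and polyadenylated RNA was sequenced with paired-end TruSeq libraries. The authors trimmed reads (cutadapt 1.8.3), aligned them (TopHat2 2.0.14) to *N. vitripennis* genome Nvit 2.1 and deposited whole-number counts of reads per gene (HTSeq, union mode), without normalization. Strand use in counting is not given in the sources used here. The 23 columns were matched to samples by name, and 0 columns were left unused. No pair of the 77 pairs of libraries within a group was a duplicate by chi-square test.

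Groups were those of the labels. Counts of 22 libraries were tested with edgeR 4.0.16 in R 4.3.3 (TMM factors, at least 1 read per gene, 1 factor for foundress number, quasi-likelihood test, Benjamini-Hochberg adjustment over all genes, adjusted p below 0.05 called). In the paper each experimental female had a different mother, taken from the mass culture. Nothing in the labels says that pools came from separate rearings, or gives their day of set-up. The p-values thus measure the spread between these pools, with any difference between days left in it. CPM used TMM factors of 23 libraries, and log2 values had 0.1 CPM added. Intervals are 95%. DESeq2 1.42.0, limma 3.58.1 with voom, other scalings, filters, pseudocounts, sample sets and leaving out each pool were alternatives. voom was always run with sample quality weights, which give pools unequal weight.

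The 6 genes and all lists were chosen with earlier results of these data known. Named besides them were the 3 genes highest and the 3 lowest in rho with each. A list of immune terms matched 0 rows other than the 6, as the files give no gene descriptions, so Def2-3, serpin5 and the yellow and serine protease families were added after values had been seen. RefSeq gave identities for 82.0% of the 14131 rows, but for assembly Nvit_psr_1.1, so no coordinates are given. Sequences were not used here.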

Additional observations from a re-analysis of the deposited data

Results flagged for a closer look

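In 8 of 18 tests, 1 for each of the 6 genes in each group, the highest pool stood far from the rest by Dixon's criterion. Chance flags about 1 in 20 groups of normally distributed values, but CPM are skewed and these genes were chosen with the high pools known, so the count describes the pools and is no evidence beyond them. The 8 are not independent either, since the defensins go together and the same pools recur. For Def1-1 the gap to the next pool, as a share of the range of the group, was 0.851 for single-foundress replicate 6, 0.815 for five-foundress replicate 10 and 0.736 for 10-foundress replicate 24. For Def1-2 it was 0.798, 0.802 and 0.729 in the same pools. For ppo1 it was 0.674 for single-foundress replicate 6, at 29.8 CPM with the next pool at 12.6, and 0.586 for five-foundress replicate 10, at 59.2 CPM with the next at 27.0. No pool stood apart by this criterion for Gnbp1-2, Imd or ppo3 in any group.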

How the results depend on the processing

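The count of the 6 genes called after adjustment was 0 under every alternative, in each comparison. Signs of log2 fold changes near 0 were not stable: 67 of 396 changed with 1 pool left out and 23 of 162 under other settings, and causes were not tested except where stated. Without the 3 pools highest in Def1-1, chosen after seeing the data, the values from single to 5 were 0.41 (Def1-1) and -0.027 (Gnbp1-2), from 5 to 10 were 0.14 (Def1-1), 0.000756 (Def1-2), 0.47 (ppo1) and -0.088 (ppo3), and from single to 10 were 0.55 (Def1-1), 0.00431 (Imd) and -0.25 (ppo3). DESeq2 gave 1.81 (single to 5) and 1.78 (single to 10) for Def1-1, where it replaced the count of 81669 in single-foundress replicate 6 by 5314. voom gave 0.29 (Def1-1), -0.22 (Gnbp1-2) and 0.024 (ppo3) from single to 5, -0.028 (Imd) from 5 to 10, and -0.059 (Def1-2) and -0.13 (ppo1) from single to 10. With all 23 libraries, Def1-2 was at -0.045 (single to 5) and -0.21 (single to 10), Gnbp1-2 at -0.12 (single to 5) and the rho of Imd with ppo3 at -0.763. Library totals alone gave -0.00398 for Gnbp1-2 (single to 5), and Def1-1 from 5 to 10 was at 0.022 with filterByExpr and 0.020 with these groups fitted alone. Leaving out each pool gave, from single to 5, -1.48 to 1.85 (Def1-1), -1.03 to 1.78 (Def1-2), -0.15 to 0.18 (Gnbp1-2) and -0.23 to 0.029 (ppo3). From 5 to 10 it gave -1.31 to 1.42 (Def1-1), -1.30 to 1.12 (Def1-2), -0.25 to 0.11 (Gnbp1-2), -0.034 to 0.092 (Imd), -0.51 to 0.43 (ppo1) and -0.025 to 0.28 (ppo3). From single to 10 it gave -1.37 to 1.87 (Def1-1), -1.05 to 1.66 (Def1-2), -0.21 to 0.086 (Gnbp1-2), -0.12 to 0.0055 (Imd) and -0.16 to 0.19 (ppo3). Of the correlations, 12 of 165 moved by more than their jackknife error under settings other than leaving out 1 pool. The estimates of ppo1 against single foundresses stayed above 0 when any 1 pool was left out, at 0.51 to 1.46 (5) and 0.48 to 1.41 (10). At an unadjusted threshold ppo1 passed without single-foundress replicate 6 in both, where 305 (single to 5) and 656 (single to 10) of 13592 genes passed. It also passed without the 3 high pools from single to 10 (adjusted p 0.485, edgeR), where 1367 of 13567 genes passed the unadjusted threshold. With all 23 libraries edgeR called 39 other genes from single to 10 and 77 over all groups. The paper, which used DESeq2, reports that leaving out single-foundress replicate 2 did not change its number of called genes. DESeq2 was not run on all 23 libraries here. Without single-foundress replicate 3 edgeR called 1 other gene from single to 10 and 1 over all groups. With the 22 libraries voom called 3 from single to 10. No paired analysis was possible because replicate numbers are not shared between groups.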

Other observations

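Further families of the melanin and cuticle pathways were looked at after values had been seen. Of 9 yellow genes, whose products act in pigmentation in *Drosophila*, 0 passed the adjusted threshold in any comparison of edgeR's quasi-likelihood test, and their median log2 fold change from single to 10 foundresses was -0.26. Of 43 serine protease genes and 8 homologues lacking protease activity 0 passed either, with medians of 0.05 and -0.23, beside 0.01 over all genes. At an unadjusted p of 0.05 the counts in the single versus 10 comparison were 2 yellow, 5 protease and 2 homologue genes, where 3.18% of all genes passed. They were 0, 4 and 2 from 5 to 10 foundresses (1.81% of all genes) and 0 in each family from single to 5 (1.76%). The lists hold genes with few reads, only 7, 14 and 4 of them having a mean of 100 counts or more, and DESeq2 called 0 genes of the series after adjustment. Over the 22 pools the homologue gene SPH21 (102 to 675 CPM) had a rho of -0.75 with ppo3 and 0.76 with ppo1, whereas SPH126 (25.1 to 90.4 CPM) had a rho of 0.90 with ppo3. Y-y, at 0.982 to 7.81 CPM, had a rho of -0.81 with ppo3. These are single genes of the lists. The median rho with ppo3 was 0.08 over the protease, -0.06 over the homologue and -0.36 over the yellow genes. Of the 9300 other well covered genes, 25.3% had a rho with ppo3 of 0.5 or more and 25.8% one of -0.5 or less. SP76 covered 0.264 to 371 CPM between pools and had a rho of 0.39 with Def1-1.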
